A study of Homo sapiens with 12 samples.

Results

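S100 proteins are small calcium-binding proteins with a pair of EF-hands, the helix-loop-helix motif that holds a calcium ion. Most act as dimers that change shape when calcium binds and then dock onto partner proteins inside the cell, such as annexins and myosin, and several are also released and bind cell-surface receptors such as the receptor for advanced glycation end products, AGER. In carcinomas they are known for their part in migration, in inflammation-like signalling and as markers of stage and outcome. The 10 genes described here, S100A4, S100A6, S100A8, S100A9, S100A10, S100A11, S100A13, S100A14, S100A16 and S100P, were taken by name from a list and matched to the identifiers of the GENCODE 29 annotation. They are 10 of the 58735 genes measured, and all 10 passed the filter on low reads in both comparisons.

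Poly-A RNA was sequenced in 12 libraries of human breast cancer cells, 3 in each of 4 groups. SK-BR-3 is an established HER2-amplified breast cancer line, and SK/EPI is a line derived from it by stepwise exposure to rising concentrations of epirubicin, an anthracycline that damages DNA. SK/EPI-siBCRP cells were SK/EPI cells transfected for 48 h with a siRNA against BCRP, the drug transporter encoded by ABCG2, and SK/EPI-siControl cells received a control siRNA for the same time. The first comparison, SK/EPI versus SK-BR-3, asks what differs in the resistant line, and the second, SK/EPI-siBCRP versus SK/EPI-siControl, asks what changes when the transporter is depleted. SK/EPI is 1 derived line, so drug exposure and the history of the line cannot be told apart, and the supplement of the study names a single siRNA, siBCRP #1, for the sequenced cells. The SK/EPI and SK-BR-3 libraries came in one table and the siRNA libraries in another, so values of different tables are set side by side without a test.

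Libraries held 15830381 to 20545811 reads on genes, which came back as whole numbers from the deposited FPKM (fragments for each kilobase of exon, divided by library size), and the S100 genes drew 132 to 39480 reads per library. ABCG2 stood at 0.0220 to 0.0750 FPKM in SK-BR-3, 32.7 to 35.9 in SK/EPI, 32.5 to 33.7 in SK/EPI-siControl and 2.84 to 3.47 in SK/EPI-siBCRP, which is the order the labels give. ABCB1, a second drug transporter, was at 0 to 0.0181 FPKM in SK-BR-3, 325 to 328 in SK/EPI, 205.5 to 206.3 in SK/EPI-siControl and 184 to 190 in SK/EPI-siBCRP. Of 8 markers of luminal breast epithelium, 7 reached 1 FPKM in every group, and CDH1 was at 0 in SK-BR-3. Mitochondrial reads took 4.18% to 4.23% of SK-BR-3 and 5.10% to 5.38% of SK/EPI libraries, and the part of this share in the results was examined only by refitting without that chromosome. The labels speak of triplicates without saying that these were separate cultures, so p-values measure the spread between these libraries, which may be technical.

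The siRNA and the promoters are shown first, because the siRNA defines the second comparison and the promoter letters set some S100 genes apart from others. Its strands are given 5′ to 3′, with the seed of the antisense strand, bases 2 to 8, in capitals.
siBCRP#1-Upper: gggauacuuugaaucagcugguuau
siBCRP#1-Lower: aUAACCAGcugauucaaaguauccc
The whole 25-base target lay in the transcripts of 1 gene, ABCG2. A match to the 7-base seed occurred in 1 of the 10 S100 genes, S100A13, in all 6 of its transcripts, against 21.7% of 12953 protein-coding genes tested. The other 9 genes carried no seed match in any transcript. The search covered whole transcripts, and a gene counted if any of its transcripts matched, so the share depends on their length and number. The S100 genes have 577 to 2216 exonic bases, and the background was not matched for length.

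The letters upstream of the start sites were read from RefSeq promoter windows of 300 bases, 250 before to 50 after each start, on build GRCh38.p14, and all 10 genes matched, with 15 windows between them. TATAAA, the core of the TATA box, was present on either strand in the windows of 5 of the 10 genes, S100A4, S100A8, S100A9, S100A13 and S100P, against 13.99% of 27305 genes. In all 5 genes it began 28 to 31 bases before a start site. The 30 bases from position -45 to -16 of that start are given below for the genes with TATAAA, in capitals, and for S100A6. In that stretch S100A6 has tataag, which differs from TATAAA in the last letter, and so does S100A14. Such near matches were not counted.
S100A9, chr1:153357809-153357838, plus strand: ccagtcaggagctgccTATAAAtgccgagc
S100A8, chr1:153391089-153391118, minus strand: ggccaagcctaaccgcTATAAAaaggagct
S100A4, chr1:153545822-153545851, minus strand: gggcctggctggggTATAAAtaggtcagac
S100A13, chr1:153627521-153627550, minus strand: ctccttccccgctgctTATAAAcctcagcc
S100P, chr4:6693833-6693862, plus strand: tcaatatgaggctgcctTATAAAgcaccaa
S100A6, chr1:153536007-153536036, minus strand: cggggcaccgaccgctataaggccagtcgg
The genes with TATAAA included the 2 that rose most in SK/EPI and the one that fell most, so the letters did not follow the direction of change. S100A6 also held GGGCGG, the GC box, at 3 positions, 2 of which overlap, and this motif was found in 6 of the 10 genes against 48.3% of all genes. The C/EBP-type sequence TTNNGNAA was found in 7 of 10 genes against 41.8%. The AP-1 sequence TGANTCA and the cyclic AMP element TGACGTCA were found in 0 of 10, against 9.37% and 2.25%. These are matches of letters within the window and were not measured as binding sites.

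In SK/EPI compared with SK-BR-3, the S100 genes split. S100A8, S100A9 and S100A10 were upregulated by 2.69 to 5.59 times in mean FPKM, S100A4, S100A6, S100A13, S100A14, S100A16 and S100P were downregulated by 1.81 to 22.2 times, and S100A11 did not pass the test. With limma on log2(FPKM + 1) and an adjusted p under 0.05 (Benjamini-Hochberg over 15823 genes), 9 of the 10 were called, 3 higher and 6 lower. The call alone says little here, since 74.9% of all tested genes were called, 37.9% higher and 37.0% lower. The size of the changes differed more from the background: 8 of the 10 were called with a log2 fold change of at least 1 in either direction, against 14.4% of all genes, and the median absolute log2 fold change was 2.03 for the S100 genes and 0.36 for all genes tested. The members were chosen with earlier results of these data known, which may bear on these sizes. The background also holds genes of low FPKM, whose changes the log2(FPKM + 1) scale understates. Fewer cells with a transcript and less of it per cell cannot be told apart in bulk RNA.

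**Figure D1:**
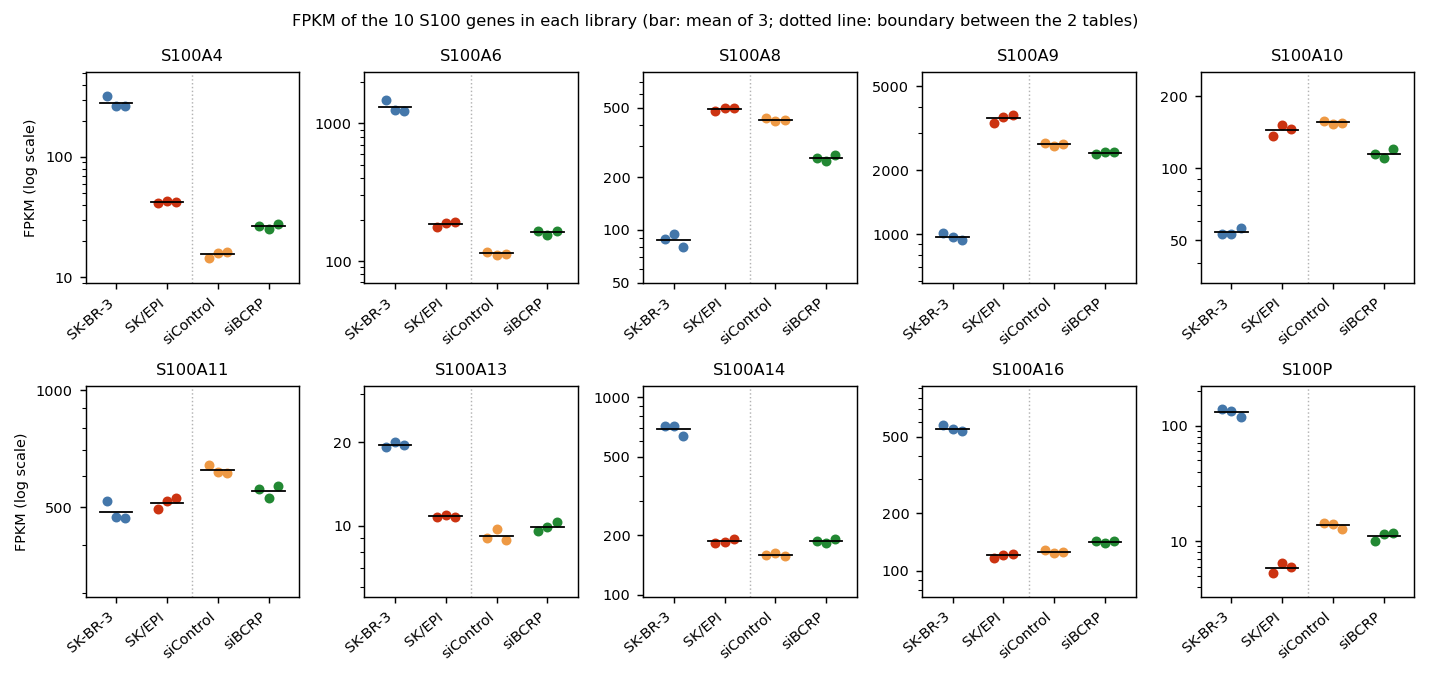
FPKM of each of the 10 S100 genes (log axis) in the 12 libraries, with points for libraries and a bar for the mean of 3; the dotted line parts the 2 separately deposited tables. S100A8, S100A9 and S100A10 are higher in SK/EPI than in SK-BR-3, S100A11 overlaps, and the other 6 genes are lower.

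S100A8 and S100A9 form calprotectin, a heterodimer best known from neutrophils and monocytes, where it binds zinc and calcium and acts as a danger signal through TLR4 and AGER. S100A9 (ENSG00000163220, chr1:153357854-153361027, plus strand) was measured at 1008, 965 and 941 FPKM in the 3 SK-BR-3 libraries and at 3365, 3584 and 3653 in the SK/EPI libraries. S100A8 (ENSG00000143546, chr1:153390032-153391188, minus strand) was measured at 88.9, 95.1 and 79.8 FPKM in SK-BR-3 and at 480, 499 and 496 in SK/EPI. Every SK/EPI library was above every SK-BR-3 library for both genes. The log2 fold change was 2.47 (SE 0.06, adjusted p = 1.41e-08, limma) for S100A8 and 1.86 (SE 0.08, adjusted p = 2.02e-07, limma) for S100A9. The partners were not at equal levels: S100A9 exceeded S100A8 by 11.1 ± 0.845 times (SD, n = 3) in SK-BR-3 and by 7.18 ± 0.183 times in SK/EPI.

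Most markers of the cells in which calprotectin is most abundant were low. The summed level of 9 myeloid markers was 4.01 to 4.39 FPKM in SK-BR-3 and 32.4 to 34.5 in SK/EPI. Of the SK/EPI sum, CD14, the lipopolysaccharide co-receptor, made up 26.6 to 28.1. CD14 was at 0.470 to 0.568 FPKM in SK-BR-3, so it rose (log2 fold change 4.23, adjusted p = 2.99e-10, limma). Of the 4 myeloid markers tested, 3 were higher and 1 lower, beside 74.9% of all tested genes called. MPO, a defining granulocyte enzyme, was at 0 in all libraries of both lines, and 7 of the 9 markers stayed below 1 FPKM in SK/EPI. S100A9 alone exceeded that sum in every library of both lines. It was at 941 FPKM or more in SK-BR-3 and at 3365 FPKM or more in SK/EPI. No myeloid cells were sequenced here, so how large this gap would be in them is not known. The 8 squamous and basal keratinocyte markers, from the other tissue type rich in S100 proteins, summed to 57.0 to 62.1 FPKM in SK-BR-3 and to 31.8 to 34.2 in SK/EPI. Their members moved both ways: of 5 tested, 3 were higher, led by KRT5 (0 to 0.0587 FPKM in SK-BR-3 and 6.76 to 7.97 in SK/EPI, log2 fold change 3.05, adjusted p = 9.35e-09, limma) and with TP63 at 0.0169 to 0.0520 and 1.94 to 2.45 FPKM. The other 2, KRT10 at 34.4 to 40.003 and 13.8 to 15.0 FPKM and IVL at 22.0 to 24.5 and 7.56 to 9.99 FPKM, were lower, and LOR was at 0 in both lines. The part of these markers in the S100 results was not tested.

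S100A10 and S100A11 are the annexin-binding members: S100A10, also called p11, forms a tetramer with annexin A2 at the plasma membrane, and S100A11 pairs with annexin A1. S100A10 (chr1:151982915-151994390, minus strand) was measured at 53.0, 53.0 and 56.3 FPKM in SK-BR-3 and at 137, 152 and 147 in SK/EPI, with no overlap. Its log2 fold change was 1.41 (SE 0.05, adjusted p = 5.88e-08, limma). Its partner ANXA2 also rose, from 27.7 to 49.8 FPKM in the mean (log2 fold change 0.82, SE 0.04, adjusted p = 3.08e-07, limma).

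S100A11 (chr1:152032506-152047907, minus strand) was measured at 520, 472 and 469 FPKM in SK-BR-3 and at 495, 519 and 526 in SK/EPI. The ranges overlapped, and the log2 fold change was 0.08 with a 95% interval from -0.05 to 0.21 (adjusted p = 0.241, limma). Without the mitochondrial chromosome, or with voom on the recovered reads, the value was 0.14 (adjusted p = 0.0182) or 0.17 (adjusted p = 5.85e-04), both past the threshold, while scaling to TPM (adjusted p = 0.161) or by the median of ratios (adjusted p = 0.290) left it uncalled. Its partner ANXA1 went from 1.56 to 16.1 FPKM in the mean, a log2 fold change of 2.74 (SE 0.06, adjusted p = 5.23e-09, limma). In SK/EPI, S100A11 therefore stood far above ANXA1 on the FPKM scale, as it did in SK-BR-3.

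S100A4, known as metastasin, binds non-muscle myosin IIA and is tied to cell motility, and S100A6, calcyclin, binds the ubiquitin-ligase adaptor CACYBP and several annexins. S100A6 (chr1:153534599-153536244, minus strand) was the highest of the 10 genes in SK-BR-3, at 1475, 1253 and 1233 FPKM, and was measured at 177, 188 and 190 in SK/EPI. S100A4 (chr1:153543613-153550136, minus strand) was measured at 319, 266 and 263 FPKM in SK-BR-3 and at 41.3, 43.1 and 42.6 in SK/EPI. In SK-BR-3, replicate 1 was the highest library for both genes, and all SK/EPI libraries were far below it and its fellows. The log2 fold change was -2.82 (SE 0.08, adjusted p = 1.87e-08, limma) for S100A6 and -2.71 (SE 0.07, adjusted p = 1.74e-08, limma) for S100A4, or 7.14 and 6.68 times lower in mean FPKM. MYH9, the gene of the myosin heavy chain that S100A4 binds, and CACYBP fell as well, from 109 to 51.3 FPKM and from 43.2 to 23.9 FPKM in the mean (log2 fold change -1.07 and -0.83, adjusted p = 1.03e-07 and 1.94e-07, limma).

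S100A14 and S100A16 lie 1.11 kb apart on the same strand and are expressed mainly in epithelia, where S100A14 is linked to junctions and invasion and S100A16 to growth and differentiation. S100A14 (chr1:153614255-153616986) was measured at 714, 712 and 638 FPKM in SK-BR-3 and at 183, 186 and 193 in SK/EPI. S100A16 (chr1:153606886-153613145) was measured at 577, 548 and 535 FPKM in SK-BR-3 and at 117, 122 and 123 in SK/EPI. Neither gene had overlapping groups, and the log2 fold change was -1.87 (SE 0.06, adjusted p = 3.22e-08, limma) for S100A14 and -2.19 (SE 0.04, adjusted p = 4.03e-09, limma) for S100A16. Of 7 other luminal epithelial markers tested, 3 were higher and 3 lower, beside 74.9% of all tested genes called. The sizes were unequal. The largest rise was KRT18, from 358 to 601 FPKM in the mean (log2 fold change 0.75). The largest fall was ERBB2, from 659 to 133 FPKM (log2 fold change -2.30). The sum of the 8 listed markers was 3923 to 4142 FPKM in SK-BR-3 and 2360 to 2490 in SK/EPI.

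S100A13 helps export FGF1, a growth factor without a signal peptide, from stressed cells. It was the lowest of the 10 genes in SK-BR-3, at 19.2, 19.99 and 19.5 FPKM, and was measured at 10.7, 10.9 and 10.8 in SK/EPI, a log2 fold change of -0.80 (SE 0.03, adjusted p = 1.78e-07, limma). FGF1 was measured at 0.147 FPKM in SK-BR-3 and 13.5 in SK/EPI in the mean (log2 fold change 3.66, SE 0.06, adjusted p = 1.56e-09, limma), the opposite direction to S100A13. The value of S100A13 (chr1:153618787-153631360, minus strand) is less certain than the others, since 24.2% of its exonic bases are shared with AL162258.1 on the same strand and 10.6% with S100A1 on the other, and the kit did not mark strand.

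S100P, placed apart from the rest on 4p16 (chr4:6693069-6697170, plus strand), binds ezrin and AGER and is known from pancreatic and breast carcinoma. It showed the largest change of the 10 genes. It was measured at 138, 133 and 120 FPKM in SK-BR-3 and at 5.26, 6.44 and 5.92 in SK/EPI, which took it from seventh place among the 10 genes to the last. The log2 fold change was -4.26 (SE 0.07, adjusted p = 2.30e-09, limma), or 22.2 times lower in mean FPKM. EZR, which encodes ezrin, was measured at 156 and 141 FPKM in the mean (log2 fold change -0.14, adjusted p = 0.0114, limma).

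**Figure D2:**
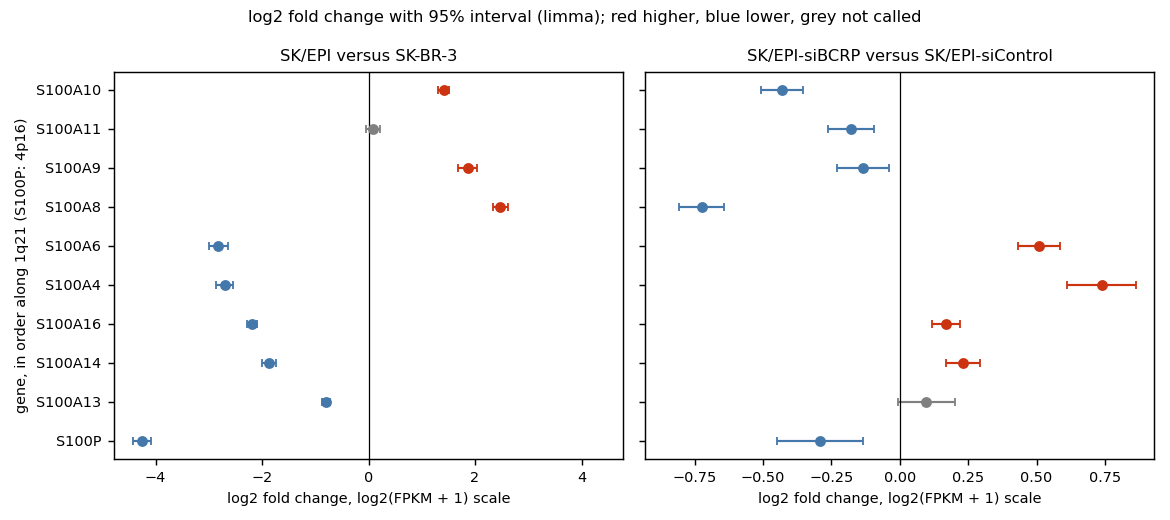
log2 fold change on the log2(FPKM + 1) scale with its 95% interval for each S100 gene in the first comparison (left) and the second (right), in order along 1q21 with S100P last; red marks higher, blue lower and grey not called. Of the 8 genes called on both sides, only S100P keeps its direction, and the right axis covers smaller changes. The call of S100A9 on the right was lost when any 1 library was left out.

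The order of the S100 levels within a library was therefore different in each line. In SK-BR-3 the order from the top was S100A6, S100A9, S100A14, S100A16, S100A11, S100A4, S100P, S100A8, S100A10 and S100A13, and no neighbours in it had overlapping ranges. In SK/EPI it was S100A9, S100A11, S100A8, S100A14, S100A6, S100A10, S100A16, S100A4, S100A13 and S100P, and here S100A11 overlapped with S100A8 and S100A14 with S100A6. The summed level of the 10 genes was 4594 ± 287 FPKM (SD, n = 3) in SK-BR-3 and 5236 ± 198 in SK/EPI. S100A8 and S100A9 made up 23.1% ± 0.649 of that sum in SK-BR-3 and 76.9% ± 0.152 in SK/EPI. S100A4, S100A6, S100A14 and S100A16 together made up 61.9% ± 0.813 and 10.2% ± 0.115. The make-up of the sum thus changed far more than the sum itself.

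**Figure D3:**
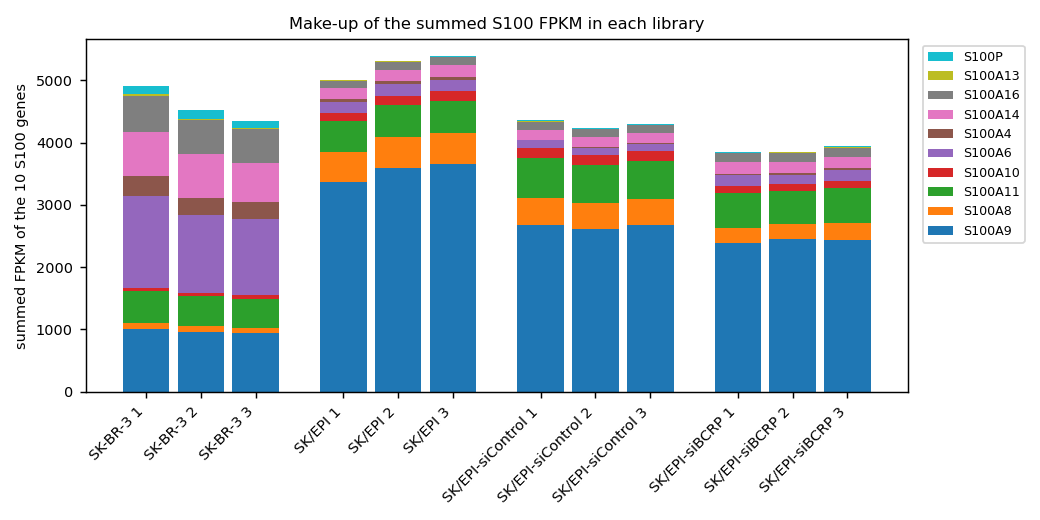
Summed FPKM of the 10 S100 genes in each of the 12 libraries, stacked by gene. S100A9 takes the greatest share in SK/EPI and in both siRNA groups, with S100A8 and S100A9 together at 76.9% of the sum in SK/EPI and 23.1% in SK-BR-3.

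On 1q21, where 9 of the 10 genes lie, the direction of change divided by position. S100A9, S100A12, S100A8, S100A7A and S100A7 occupy a stretch of 103 kb, and all 5 were higher in SK/EPI. S100A7L2 also lies there and was at 0. After a gap of 73.9 kb comes a stretch of 97.4 kb from S100A6 to S100A1, in which S100A6, S100A5, S100A4, S100A16, S100A14, S100A13 and S100A1 were lower and S100A3 and S100A2 were not called. S100A10 and S100A11 sit 1310 kb or more before S100A9. Among all tested genes, 37.9% were higher and 37.0% lower. Of the 69 tested genes outside the family in this region, described below, 16 were higher and 40 lower. The positions of the S100 genes were examined after the values were seen.

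Among the family genes outside the list, S100A7, psoriasin, an antimicrobial protein of inflamed skin and of ductal carcinoma in situ, had the widest change. It was measured at 6.11, 4.65 and 6.86 FPKM in SK-BR-3 and at 432, 473 and 489 in SK/EPI, a log2 fold change of 6.09 (SE 0.11, adjusted p = 3.18e-09, limma). S100A7A, its close copy, was at 0.0589 to 0.127 FPKM in SK-BR-3 and 6.18 to 6.68 in SK/EPI, and 14.2% of the 50-base words of S100A7 recur in S100A7A, so reads may have been split between them. S100A12 rose from 0.504 to 4.57 FPKM in the mean (log2 fold change 1.89, adjusted p = 2.52e-05, limma). S100A5 and S100A1 were low and fell, from 2.16 to 0.636 FPKM and from 1.07 to 0.654 FPKM (adjusted p = 1.19e-05 and 0.00389, limma). Of the 11 other family genes, 7 were tested, with 3 higher, 2 lower and S100A2 and S100A3 not called, beside 74.9% of all tested genes called. S100A7L2 and S100Z were at 0 in all 12 libraries, and S100B and S100G had 1 read in 1 library each.

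**Figure D4:**
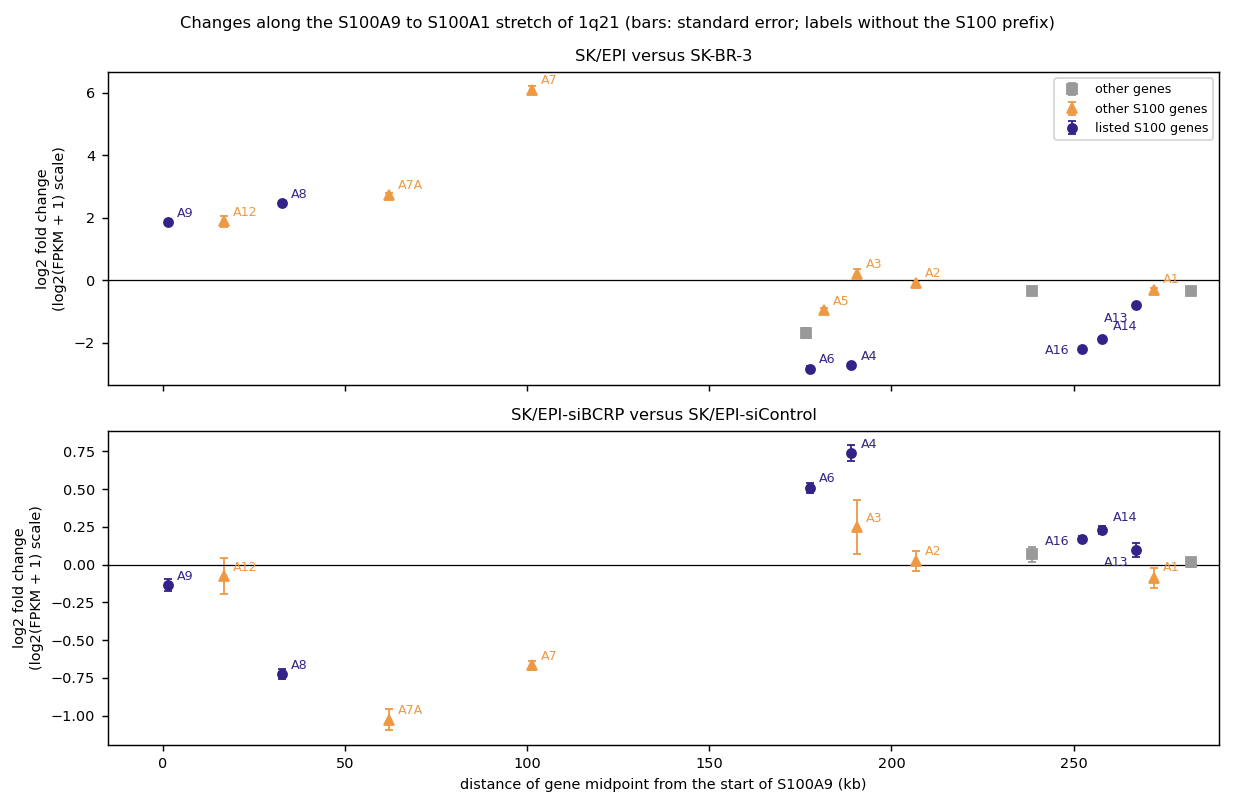
log2 fold change (log2(FPKM + 1) scale, bars for the standard error) of tested genes against the distance of the gene midpoint from the start of S100A9 in kb, for the first comparison (top) and the second (bottom). In the top panel the S100A9 to S100A7 group lies above 0 and the called genes from S100A6 to S100A1 lie below it; in the bottom panel S100A8, S100A9, S100A7A and S100A7 lie below 0, and S100A4, S100A6, S100A14 and S100A16 above.

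Other genes of the region moved both ways. Between the outermost S100 genes of 1q21 and within 1 Mb of them, 69 of 202 genes were tested, of which 16 were higher and 40 lower (beside 37.9% and 37.0% of all tested genes), while 71 of the 202 were at 0 in all 6 libraries. The tested neighbours had a median log2 fold change of -0.30 beside 0.01 for all genes tested. The largest rise was that of TCHH, trichohyalin, a structural protein of hair follicles, from 0.0979 to 7.66 FPKM in the mean. The largest fall was that of BX470102.1, from 3.07 to 0.273 FPKM, which overlaps 2.37% of the exonic bases of S100A6 on the opposite strand. Around S100P, 13 of 35 genes within 1 Mb were tested, with 6 higher and 5 lower.

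Genes of S100 partners, receptors and other calcium sensors were counted from lists, beside 74.9% of all tested genes called. Of 22 partners and targets, 20 were tested, with 8 higher, led by FGF1, and 10 lower, led by ANXA6, an S100-binding annexin measured at 82.3 and 13.2 FPKM in the mean. Of 11 receptor genes, 9 were tested, with 3 higher and 2 lower. AGER was measured at 0.946 and 1.86 FPKM in the mean (log2 fold change 0.56, adjusted p = 5.14e-04, limma). MCAM, which binds S100A8 and S100A9, fell from 11.9 to 0.516 FPKM (log2 fold change -3.09, adjusted p = 1.70e-09, limma), while the genes of those ligands rose, and TLR4 was too low to be tested. Of 20 EF-hand genes outside the family, such as the calmodulins, 11 were higher and 8 lower, with a median log2 fold change of 0.16 and a median absolute change of 0.35, close to the 0.36 of all genes.

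In SK/EPI-siBCRP compared with SK/EPI-siControl, the S100 genes changed by less. S100A8, S100A10, S100A11, S100A9 and S100P were lower, S100A4, S100A6, S100A14 and S100A16 higher, and S100A13 was not called. That is 9 of 10 genes called, 4 higher and 5 lower, with limma and the same threshold over 16298 genes, against 38.1% of all genes, 19.4% higher and 18.7% lower. None of the 10 changed by a log2 fold change of 1 or more, which 0.411% of all genes did. The median absolute log2 fold change was 0.26 for the S100 genes and 0.12 for all genes tested. The limits given for the sizes of the first comparison, the choice of members and the low genes, hold here too.

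S100A8 fell most. It was measured at 433, 419 and 423 FPKM in SK/EPI-siControl and at 256, 247 and 269 in SK/EPI-siBCRP, with no overlap, a log2 fold change of -0.72 (SE 0.04, adjusted p = 1.21e-05, limma). Its partner S100A9 was measured at 2683, 2611 and 2674 FPKM and at 2380, 2444 and 2434, also without overlap but by a log2 fold change of only -0.13 (SE 0.04, adjusted p = 0.0340, limma). That call was lost when any 1 of the 6 libraries was left out (adjusted p from 0.0581 to 0.0913). S100A9 exceeded S100A8 by 6.25 ± 0.0673 times (SD, n = 3) in SK/EPI-siControl and by 9.42 ± 0.445 times in SK/EPI-siBCRP. The 9 myeloid markers summed to 13.8 to 14.8 FPKM in SK/EPI-siControl and to 14.6 to 15.7 FPKM in SK/EPI-siBCRP. In each of these groups 2 of the 9 reached 1 FPKM. The part of these markers in the change of S100A8 was not tested.

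S100A10 was measured at 158, 154 and 155 FPKM in SK/EPI-siControl and at 115, 111 and 120 in SK/EPI-siBCRP. The groups did not overlap, and the log2 fold change was -0.43 (SE 0.03, adjusted p = 7.03e-05, limma). ANXA2 was measured at 42.9 and 44.97 FPKM in the mean, with a log2 fold change of 0.07 (95% interval -0.01 to 0.14, adjusted p = 0.137, limma). S100A11 was measured at 642, 616 and 612 FPKM and at 556, 529 and 566, a log2 fold change of -0.18 (SE 0.04, adjusted p = 0.00672, limma), and ANXA1 was not called (log2 fold change -0.06, adjusted p = 0.276, limma).

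S100A4 rose most. It was measured at 14.4, 15.9 and 16.3 FPKM in SK/EPI-siControl and at 26.8, 25.2 and 27.6 in SK/EPI-siBCRP, a log2 fold change of 0.74 (SE 0.05, adjusted p = 5.85e-05, limma) or 1.71 times in mean FPKM. S100A6 was measured at 116, 111 and 113 FPKM and at 165, 155 and 166, a log2 fold change of 0.51 (SE 0.03, adjusted p = 3.42e-05, limma). All siBCRP libraries were above all siControl libraries for both genes. MYH9 fell, from 48.3 to 27.5 FPKM in the mean (log2 fold change -0.79, adjusted p = 3.22e-06, limma), while CACYBP rose from 21.01 to 25.4 FPKM (log2 fold change 0.26, adjusted p = 0.00134, limma).

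S100A14 was measured at 159, 163 and 156 FPKM in SK/EPI-siControl and at 188, 182 and 192 in SK/EPI-siBCRP, a log2 fold change of 0.23 (SE 0.03, adjusted p = 5.41e-04, limma). S100A16 was measured at 128, 124 and 125 FPKM and at 143, 140 and 143, a log2 fold change of 0.17 (SE 0.02, adjusted p = 8.87e-04, limma). Both were small but free of overlap. S100A13, the gene with the seed match, was measured at 8.98, 9.74 and 8.84 FPKM and at 9.57, 9.85 and 10.3, with overlapping groups and a log2 fold change of 0.10 (95% interval -0.01 to 0.20, adjusted p = 0.127, limma).

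S100P was measured at 14.2, 14.1 and 12.8 FPKM in SK/EPI-siControl and at 9.91, 11.5 and 11.7 in SK/EPI-siBCRP. The groups did not overlap, and the log2 fold change was -0.29 (SE 0.07, adjusted p = 0.0121, limma). It was the one gene among those called in both comparisons that moved the same way in each. The other 7 of 8 moved in opposite directions, against 52.7% of the 4892 genes called in both. The 2 comparisons share no library, although both rest on the SK/EPI line.

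The summed level of the 10 genes was 4297 ± 60.5 FPKM in SK/EPI-siControl and 3881 ± 51.5 in SK/EPI-siBCRP. S100A8 and S100A9 made up 71.7% ± 0.327 and 69.0% ± 0.736 of it, and S100A4, S100A6, S100A14 and S100A16 made up 9.64% ± 0.115 and 13.3% ± 0.272. The order in SK/EPI-siControl was S100A9, S100A11, S100A8, S100A14, S100A10, S100A16, S100A6, S100A4, S100P and S100A13, with S100A14 and S100A10 overlapping. In SK/EPI-siBCRP it was S100A9, S100A11, S100A8, S100A14, S100A6, S100A16, S100A10, S100A4, S100P and S100A13, with S100P and S100A13 overlapping. The ratio of S100A9 to S100A6, which was 0.739 ± 0.0482 in SK-BR-3 and 19.1 ± 0.0832 in SK/EPI, was 23.4 ± 0.274 in SK/EPI-siControl and 14.9 ± 0.709 in SK/EPI-siBCRP.

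Of the other family genes, 6 were tested and 2 called, both lower, beside 38.1% of all tested genes called. S100A7 was measured at 132, 140 and 140 FPKM in SK/EPI-siControl and at 85.4, 86.4 and 86.4 in SK/EPI-siBCRP (log2 fold change -0.67, SE 0.03, adjusted p = 7.45e-06, limma). S100A7A was measured at 4.44 to 5.40 FPKM and at 1.82 to 2.01 (log2 fold change -1.03, SE 0.07, adjusted p = 4.74e-05, limma). S100A12 was not called, at 2.81 and 2.59 FPKM in the mean, and neither were S100A1, S100A2 and S100A3. Among 69 tested neighbours on 1q21, 10 were higher, led by LYSMD1, and 17 lower, led by SNAPIN, and around S100P 4 of 14 were higher and 0 lower, SORCS2 among the former. These counts stand beside 19.4% higher and 18.7% lower among all tested genes.

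The counts of partner, receptor and other EF-hand genes are to be read beside the 38.1% of all tested genes that were called here. Of 21 partners and targets tested, 6 were higher, led by ANXA6 from 15.1 to 23.4 FPKM in the mean, and 3 lower, led by MYH9. Of 8 receptor genes tested, 2 were higher, led by NPTN, a receptor for S100A8, and 1 was lower. NPTN went from 13.8 to 22.9 FPKM (log2 fold change 0.69, adjusted p = 7.59e-06, limma). The lower gene, SDC1, went from 54.1 to 43.8 FPKM. AGER was not called, at 3.02 and 2.50 FPKM in the mean. Of 19 EF-hand genes outside the family, 9 were higher, led by SDF4, and 2 lower, CALM2 and CALU.

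SK/EPI and SK/EPI-siControl are the same line without and with a control transfection, but they stand in different tables, so their levels are only set side by side. S100A4 was at 41.3 to 43.1 FPKM in SK/EPI and 14.4 to 16.3 in SK/EPI-siControl, and S100A6 at 177 to 190 and 111 to 116. S100A7 was at 432 to 489 and 132 to 140, S100A9 at 3365 to 3653 and 2611 to 2683, and S100P at 5.26 to 6.44 and 12.8 to 14.2. The remaining listed genes lay closer in part. S100A8 was at 480 to 499 and 419 to 433, and S100A10 at 137 to 152 and 154 to 158. S100A11 was at 495 to 526 and 612 to 642, and S100A13 at 10.7 to 10.9 and 8.84 to 9.74. S100A14 was at 183 to 193 and 156 to 163, and S100A16 at 117 to 123 and 124 to 128. Transfection, culture and separate processing cannot be told apart in these values.

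The genes most like S100P across all 12 libraries, by the root mean square difference of centred log2(FPKM + 1) among 15152 genes tested in both comparisons, were PREX1 (0.144), TP53INP2 (0.259) and TRPS1 (0.295). PREX1, an activator of the GTPase Rac, was measured at 105, 3.91, 9.27 and 8.97 FPKM in the mean of SK-BR-3, SK/EPI, SK/EPI-siControl and SK/EPI-siBCRP. The gene most like S100A4, the member with the largest change in the second comparison, was its neighbour S100A6 (0.280), followed by RAB25 (0.307) and AL513304.1 (0.334). RAB25, a small GTPase of epithelial recycling endosomes, was measured at 74.7, 12.3, 5.76 and 5.59 FPKM in the same order, so it fell with S100A4 in SK/EPI but did not follow it in SK/EPI-siBCRP.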

How the data were processed

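The authors aligned and counted the reads and deposited FPKM per gene in 2 tables, 1 for each comparison, whose unit is not stated and was inferred from the values. With the exon lengths of GENCODE 29, all FPKM values in every library came back as whole reads within 0.1 read. The submitters' processing notes name HISAT2 2.0.5, featureCounts 1.5.0-p3 and hg38, and the NEBNext Ultra kit does not mark strand. Libraries held 15830381 to 20545811 reads. Replicate libraries differed by more than counting noise (chi-square per degree of freedom 1.62 to 3.95) and each counted as 1.

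Genes with at least 10 reads in at least 3 of 6 libraries and 15 in all were fitted on log2(FPKM + 1) with limma 3.58.1 (R 4.3.3, trended eBayes, group only), which understates changes of low genes. P-values were adjusted over all tested genes by the Benjamini-Hochberg method and called under 0.05. The fitting code was tested on simulated data. Alternatives were the pseudocount, filter, scaling (TPM, median of ratios, no mitochondrial chromosome), a replicate block, voom on recovered reads, thresholds and leaving out each library. Named genes were the 10 S100 genes, tested family members, ANXA1 and ANXA2, the largest rise and fall in each list, the 3 genes most like the most-changed member in each comparison, ABCG2 and ABCB1. MYH9, CACYBP, EZR, TLR4, CALU, the markers CDH1, MPO, LOR, TP63 and KRT10, and the untested family genes S100A7L2, S100B, S100G and S100Z were named after their values were seen, as partners of members or to complete a count. Members and lists were chosen with earlier results of these data known.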

Additional observations from a re-analysis of the deposited data

How the results depend on the processing

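Of 280 refits of single S100 genes, none changed direction, 270 stayed on the same side of the threshold, 2 brought S100A11 past it in SK/EPI versus SK-BR-3 (values given with that gene) and 8 took S100A9 off it in SK/EPI-siBCRP versus SK/EPI-siControl. Without the filter on low genes the log2 fold change of S100A9 was -0.13 (adjusted p = 0.341, limma), and with a replicate block -0.13 (adjusted p = 0.0999, limma). Leaving out 1 library gave -0.15 to -0.12. The number of S100 genes called was 8 to 10 in the first comparison and 7 to 9 in the second, except that a log2 fold change of at least 1 left 0 of 10 in the second. With a replicate block it was 9 in the first and 8 in the second. Same-numbered libraries hardly deviated together (correlations of -0.048 to -0.002 in the first comparison and 0.009 to 0.055 in the second). Differently numbered libraries gave -0.011 to 0.054 in the first and -0.050 to 0.027 in the second. With 3 libraries in each group, these values do not settle whether the numbers pair them. Over all genes, requiring a log2 fold change of at least 1 left 1245 higher and 1033 lower in the first comparison and 11 and 56 in the second, and an adjusted p under 0.01 left 2020 and 1833 in the second. Voom moved the median log2 fold change of all genes in the first comparison from 0.01 to 0.10. It scales by reads on tested genes and not by the library size used for FPKM. Reads on all genes were 99.8% to 101% of that size in SK-BR-3 and 92.8% to 95.4% in SK/EPI. The cause of these shifts was not tested. The change of S100A9 after the siRNA was the smallest of the 9 called there, and FPKM keeps no measure of absolute RNA per cell.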
